A study of Mus musculus with 8 samples.

Results

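The genes described here are the receptors and ligands of the glial cell line-derived neurotrophic factor (GDNF) family. They were taken by symbol from a table of gene counts, and all 8 were found among its 24033 gene symbols: the receptor tyrosine kinase gene Ret, the co-receptor genes Gfra1, Gfra2, Gfra3 and Gfra4, and the ligand genes Gdnf, Nrtn and Artn. They were measured in mouse lumbar dorsal root ganglia (DRG) of levels L4 to L6, which hold the cell bodies of sensory neurons with their glia. The injury group held ganglia of the side whose sciatic nerve had been crushed 24 h earlier, and the naive group held ganglia of the uncrushed opposite side, with 4 libraries in each; each repeat drew on 2 mice, so a library is a pool, and the naive ganglia come from operated animals. The labels describe dissociated ganglia and give no strain, age or sex. The mRNA was read from its 3′ end (QuantSeq REV), so that a transcript gives about the same number of reads whatever its length.

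GDNF family ligands do not bind Ret alone. Each ligand prefers a membrane-anchored co-receptor, GDNF that encoded by Gfra1, neurturin (Nrtn) Gfra2, artemin (Artn) Gfra3 and persephin (Pspn) Gfra4, and the complex of ligand and co-receptor activates the Ret kinase, which signals through Ras-MAPK and PI3K-Akt. In the DRG, Ret marks non-peptidergic nociceptors and some low-threshold mechanoreceptors, Gfra2 is found in many of these cells, and Gfra3 mainly in peptidergic nociceptors, while GDNF and artemin are made largely by glia and target tissue.

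The libraries held 17116076 to 22432122 counts in the injury group and 15422482 to 29368107 in the naive group. Neuronal markers were abundant in each library, with sums of 9 markers of 16977 to 19324 CPM (library-scaled counts, with TMM factors between libraries) in injury and 16097 to 17890 CPM in naive libraries; 1 of the 9, Isl1, fell. The sum of 6 satellite glial markers was 731 to 842 CPM in injury and 626 to 705 CPM in naive libraries, without overlap; 1 of the 6, Glul, rose, none was at 0, and their part in the results below was not tested. The sum of 7 myelinating Schwann cell markers was 703 to 904 CPM in injury and 721 to 1083 CPM in naive libraries, and that of 8 macrophage markers 10.7 to 20.6 CPM in injury and 9.78 to 20.9 CPM in naive libraries. Marker sums also overlapped for endothelial and mural cells (96.3 to 161 CPM in injury and 89.2 to 130.5 CPM in naive libraries), fibroblasts (180.5 to 307 CPM in injury and 157 to 318 CPM in naive libraries, with Pdgfra called higher), neutrophils (119 to 244 CPM in injury and 129 to 423 CPM in naive libraries) and blood cells (5.51 to 10.6 CPM in injury and 2.45 to 14.0 CPM in naive libraries, with 3 of 5 markers at 0). On the second principal component of log2 CPM naive replicate 1 stood apart, at 46.6 against -21.1 to 11.3 for the other libraries.

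In the ganglia of the crushed side the GDNF co-receptor gene Gfra1 rose 2.45-fold, the kinase gene Ret rose 1.33-fold, and the neurturin co-receptor gene Gfra2 fell 1.57-fold. Gfra3, Gfra4 and Nrtn did not pass the test, and Gdnf and Artn had too few counts to be tested. Calls rest on an edgeR quasi-likelihood adjusted p under 0.05 (Benjamini-Hochberg over the 13639 genes tested). By this rule 3 of the 6 tested family genes changed, where 12.6% of all tested genes did; 2 rose, where 8.12% of all genes rose, and 1 fell, where 4.47% of all genes fell. In bulk tissue, fewer cells of a type and less RNA per cell cannot be told apart.

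Ret, the signalling subunit that all the ligands share, was read at 411, 481, 478 and 467 CPM in injury replicates 1 to 4, against 325, 338, 359 and 362 CPM in naive replicates 1 to 4. The lowest injury library exceeded the highest naive one, with injury replicate 1 the lowest of its group. The means were 459 ± 32.9 CPM in injury and 346 ± 17.3 CPM in naive libraries (SD, n = 4 each), and the log2 fold change was 0.41 ± 0.06 (SE; edgeR adjusted p = 2.84e-05). Within the same replicate number, the injury library was higher in each of the 4 pairs, by 1.26-fold to 1.42-fold. Of the 1108 called rises, 727 were at least as large as that of Ret, Ret included, and the median called rise was 1.45-fold. The gene lies on chromosome 6 at 118151745 to 118197718 (minus strand, GRCm38), and its annotated coding transcripts have 2 different 3′ ends, which a table of 1 count per gene adds together.

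Gfra1, the GDNF co-receptor gene, had the largest log2 fold change of the 6 family genes tested. It was read at 227, 295, 274 and 337 CPM in injury replicates 1 to 4, against 108, 124, 122 and 108 CPM in naive replicates 1 to 4. The lowest injury library was still well above the highest naive one, and the injury libraries were more widely spread than the naive ones. The means were 284 ± 45.8 CPM in injury and 116 ± 8.54 CPM in naive libraries (SD, n = 4 each), with a log2 fold change of 1.29 ± 0.09 (SE; edgeR adjusted p = 2.97e-08). Same-numbered libraries differed by 2.10-fold to 3.12-fold, all in the same direction. Among the 1108 genes that rose, 162 had a log2 fold change at least as large, Gfra1 included, and the median called rise was 1.45-fold.

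Gfra1 lies on chromosome 19 at 58235604 to 58455909 (minus strand, GRCm38), and its coding transcripts have 8 different annotated 3′ ends. The last 444 bases of the gene, at its 3′ end, overlap the antisense RNA Gm16277 (58204139 to 58236047, plus strand), which is not listed in the table. The sources used here do not give the strand setting used in counting, so reads of these 2 genes in the overlap cannot be told apart. Of the 8 family genes, 5 had a window before their start in the RefSeq promoter table (GRCm38.p6), and Gfra1 was the one of these that was called. The outermost annotated GENCODE start of Gfra1 lies 511 bases further upstream, so this window lies inside the gene as GENCODE gives it, and all of it but 62 bases is annotated exon. Those 62 bases, just before the RefSeq start and outside all annotated exons, are shown for the called gene with a window, with CG pairs in capitals (minus strand, chr19:58455399-58455460).
Gfra1: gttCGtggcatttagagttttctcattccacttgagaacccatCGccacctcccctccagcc
The 250 bases before the RefSeq start of Gfra1 held 10 CG pairs, against a median of 6 over 32851 promoter windows of that length. Of all these windows, 37.8% held at least as many. The 250 bases of Gfra1 held none of 6 motifs searched on both strands. These were AP-1 (TGANTCA, in 6.75% of all windows), the cAMP response element (TGACGTCA, 1.55%), STAT (TTCNNNGAA, 7.02%), the GC box (GGGCGG, 32.7%), Sox (AACAAT, 9.42%) and Runx (TGTGGT, 14.0%). This says only that these letters are not in this window.

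Gfra2, the neurturin co-receptor gene, moved the other way. It was read at 153, 113, 151 and 114 CPM in injury replicates 1 to 4, against 184, 180.3, 239 and 232 CPM in naive replicates 1 to 4. The groups did not overlap, and each group was split into a higher and a lower pair of libraries. The means were 133 ± 22.0 CPM in injury and 209 ± 31.1 CPM in naive libraries (SD, n = 4 each), with a log2 fold change of -0.65 ± 0.13 (SE; edgeR adjusted p = 0.00611). Between same-numbered libraries the fall ranged from 1.20-fold for number 1 to 2.03-fold for number 4. Among the 609 genes that fell, 121 fell at least as much, Gfra2 included. The gene lies on chromosome 14 at 70890120 to 70979838 (plus strand, GRCm38).

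**Figure D1:**
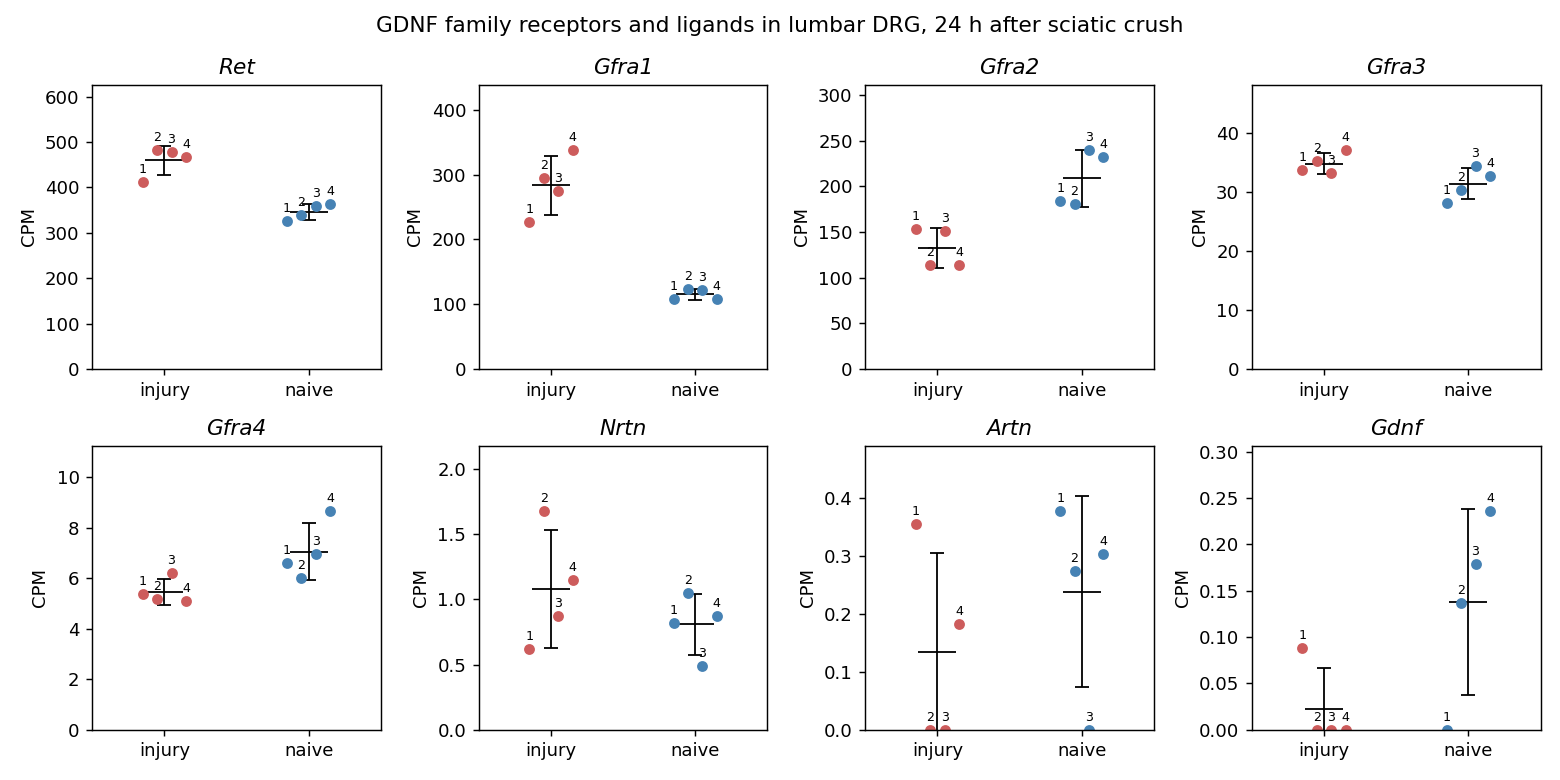
CPM of each GDNF family gene on a linear axis from 0, by library (points, numbered by replicate), with the mean and SD of 4 libraries per group (bars, not drawn below 0); injury is on the left of each panel and naive on the right. The groups do not overlap for Ret, Gfra1 and Gfra2, and they overlap for the other 5 genes, of which Artn and Gdnf have libraries at 0.

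Gfra3, the artemin co-receptor gene (chromosome 18, 34689898 to 34720387, minus strand), was read at 33.7, 35.3, 33.1 and 37.0 CPM in injury replicates 1 to 4, against 28.2, 30.4, 34.3 and 32.8 CPM in naive replicates 1 to 4. The groups overlapped, and the log2 fold change of 0.14 ± 0.10 (SE) did not pass the test (edgeR adjusted p = 0.442). Gfra4, the persephin co-receptor gene (chromosome 2, 131039632 to 131043088, minus strand), was read at 5.36, 5.17, 6.22 and 5.09 CPM in injury replicates 1 to 4, against 6.59, 6.01, 6.97 and 8.65 CPM in naive replicates 1 to 4. Here injury replicate 3 lay above naive replicate 2, and the log2 fold change of -0.37 ± 0.22 (SE) was not called (edgeR adjusted p = 0.318). The groups did not overlap in 3 of the 5 receptor genes, where this held for 16.8% of all tested genes.

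The ligand genes were close to the limit of detection. Nrtn, the neurturin gene (chromosome 17, 56751325 to 56757530), was the one ligand with enough counts to be tested, with 14, 36, 17 and 19 counts in injury replicates 1 to 4, against 13, 23, 11 and 26 counts in naive replicates 1 to 4. Its levels were 1.08 ± 0.453 CPM in injury and 0.808 ± 0.233 CPM in naive libraries (SD, n = 4 each), with a log2 fold change of 0.42 ± 0.60 (SE; edgeR adjusted p = 0.745). A standard error of this size leaves room for a change in either direction.

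Artn, the artemin gene (chromosome 4, 117926162 to 117929763), had 8, 0, 0 and 3 counts in injury replicates 1 to 4, against 6, 6, 0 and 9 counts in naive replicates 1 to 4. Gdnf (chromosome 15, 7810846 to 7837575) had 2 counts in injury replicate 1 and 0 in the other injury libraries, against 0, 3, 4 and 7 counts in naive replicates 1 to 4. Over the groups the ratio of injury to naive was 0.569 for Artn, with a 95% exact counting interval of 0.248 to 1.24, and 0.155 for Gdnf, with an interval of 0.0171 to 0.676. These intervals cover counting error only, not the spread between libraries. Over libraries, two-sided exact permutation tests of 4 against 4 gave p = 0.143 for Gdnf, 0.400 for Artn and 0.371 for Nrtn (Benjamini-Hochberg 0.400 for each of the 3), so none passed. The smallest p that 4 against 4 libraries allow is 0.0286, and after adjustment over 3 genes 1 changed ligand alone could not pass, so these tests do not show that the ligand levels were alike. A count of 0 allows a level of up to 0.134 to 0.175 CPM in an injury library and 0.102 to 0.195 CPM in a naive one. Pspn, the persephin gene, was listed at 0 in all libraries.

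Within a library all genes share the same depth, so ratios of receptor counts do not depend on scaling between libraries. The ratio of Gfra1 to Gfra2 counts was 1.49, 2.60, 1.82 and 2.96 in injury replicates 1 to 4, against 0.589, 0.687, 0.509 and 0.466 in naive replicates 1 to 4. Gfra1 thus outnumbered Gfra2 in each injury library and Gfra2 outnumbered Gfra1 in each naive one. The geometric means were 2.14 in injury and 0.557 in naive libraries, a 3.84-fold difference, in the same direction in each of the 4 same-numbered pairs. The exact two-sided permutation test gave p = 0.0286, the smallest that 4 against 4 libraries allow, and 0.0343 after Benjamini-Hochberg adjustment over 12 receptor ratios and sums. Gfra1 and Gfra2 had each separated the groups, in opposite directions. Their ratio therefore had to separate them, and its p adds nothing to the results of the separate genes. The adjusted value is under 0.05 only because most of the 12, which share the same genes, are at this smallest p.

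As shares of the summed CPM of the 4 co-receptor genes, Gfra1 made up 61.9% ± 6.42 in injury and 32.0% ± 3.50 in naive libraries, and Gfra2 29.3% ± 6.23 in injury and 57.3% ± 3.51 in naive libraries (SD, n = 4 each). Gfra3 held 7.63% ± 0.396 in injury and 8.67% ± 0.171 in naive libraries, and Gfra4 1.20% ± 0.137 in injury and 1.95% ± 0.250 in naive libraries. The highest Gfra1 share, 68.4%, was that of injury replicate 4, and the lowest injury share, 54.2% in replicate 1, was above the highest naive share, 36.4% in replicate 2.

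**Figure D2:**
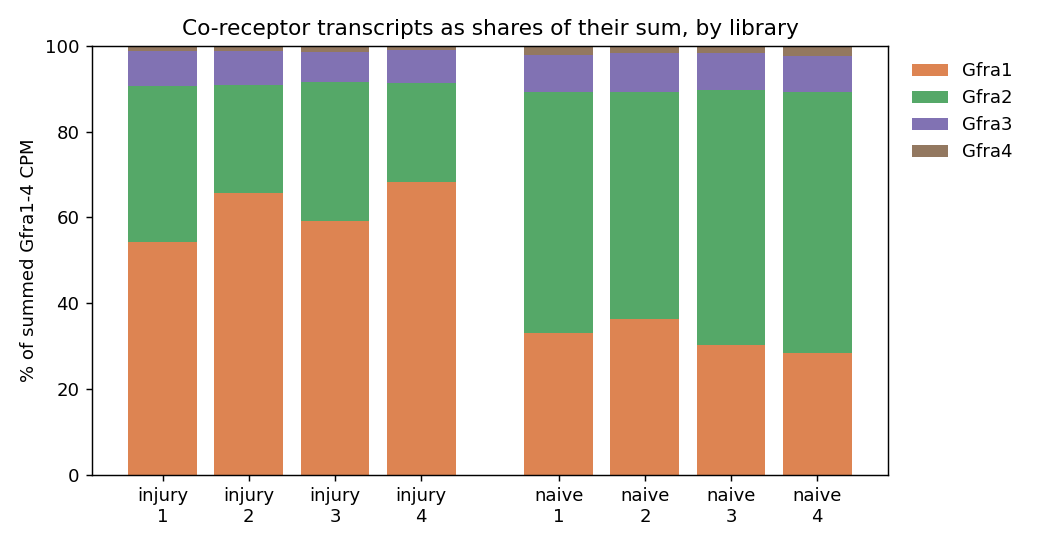
Stacked bars of the share of Gfra1, Gfra2, Gfra3 and Gfra4 in their summed CPM (percent), 1 bar per library, with the 4 injury libraries left of the 4 naive ones. Gfra1 takes 54.2% to 68.4% of the sum in injury libraries and 28.4% to 36.4% in naive ones, and Gfra2 holds most of the rest.

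The sum of Gfra1, Gfra2 and Gfra3 was 414, 444, 458 and 488 CPM in injury replicates 1 to 4, against 320, 335, 395 and 373 CPM in naive replicates 1 to 4. The groups did not overlap, and the geometric mean was 1.27-fold higher in injury libraries (exact permutation p = 0.0286, n = 4 each, adjusted 0.0343). Ret moved by nearly the same factor. The ratio of Ret to this sum had a geometric mean of 1.02 in injury and 0.976 in naive libraries, a log2 difference of 0.06 (exact permutation p = 0.314, n = 4 each), and same-numbered pairs differed by -0.04 to 0.20, with 2 pairs above 0 and 2 below. The groups overlapped in this ratio.

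Relative to its single co-receptors, Ret transcripts shifted in both directions. The ratio of Ret to Gfra1 was 1.63 in injury and 3.00 in naive libraries (geometric means), and that of Ret to Gfra2 was 3.49 in injury and 1.67 in naive libraries. Against Gfra3 the ratio of Ret was 1.19-fold higher in injury libraries, that of Gfra1 2.20-fold higher, and that of Gfra2 1.75-fold lower. All of these ratios were without overlap between groups and reached the same p of 0.0286 (adjusted 0.0343, exact permutation, n = 4 each), as did Ret, Gfra1 and Gfra3 over Gfra4. For Ret over Gfra2 this outcome was fixed in advance, because each of these genes had separated the groups, in opposite directions. The CPM ranges of the single genes also fixed it for Ret over Gfra1, and for Gfra1 and Gfra2 over Gfra3. They fixed it for Ret and Gfra1 over Gfra4 as well. The p of these ratios adds nothing to the results of the separate genes. Ret over Gfra3 and Gfra3 over Gfra4 were not fixed in this way. The ratio of Gfra2 to Gfra4 did not pass, with geometric means of 24.1 in injury and 29.6 in naive libraries (exact permutation p = 0.0857, adjusted 0.0935).

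**Figure D3:**
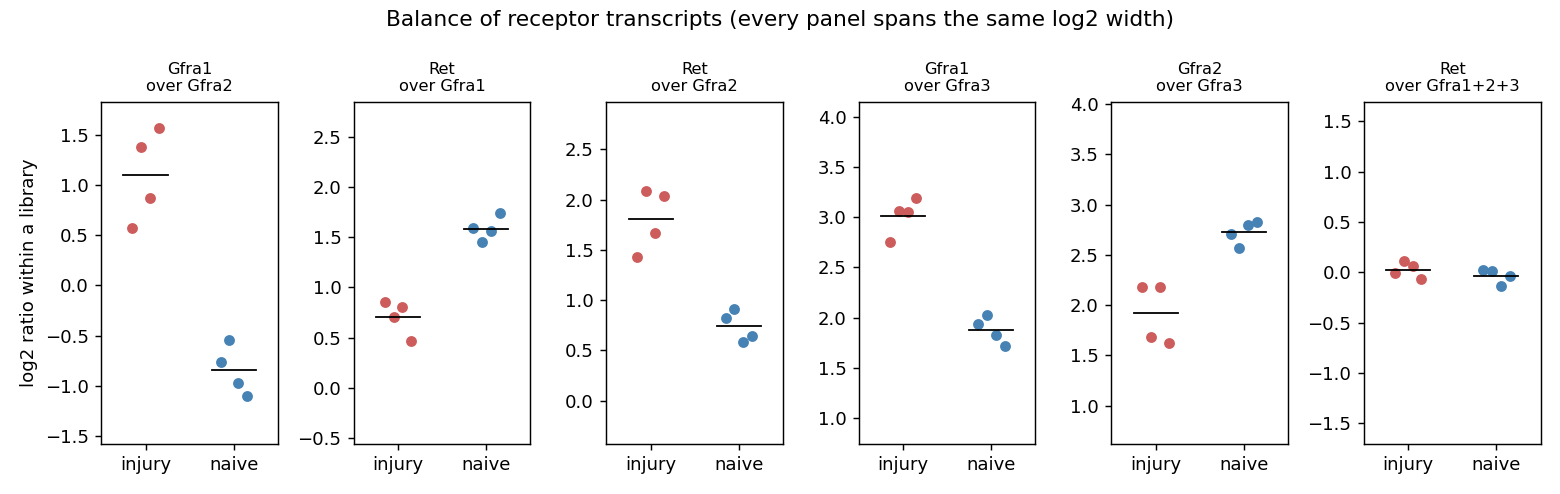
Log2 ratios of receptor transcripts within each library (points) with group means (lines), injury left of naive in each panel; all panels span the same log2 width. The ratio of Gfra1 to Gfra2 lies above 0 in the 4 injury libraries and below 0 in the 4 naive ones, while the ratio of Ret to the sum of Gfra1, Gfra2 and Gfra3 overlaps between the groups.

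In order of level, the injury libraries had Ret, Gfra1, Gfra2, Gfra3 and Gfra4, while the naive libraries had Ret, Gfra2, Gfra1, Gfra3 and Gfra4. Neighbours in each order did not overlap between their lowest and highest library. Levels of 3′ tags were not divided by length, and how well each transcript end is primed can differ between genes.

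The genes whose pattern over the 8 libraries was most like that of a receptor were found by the Pearson r of log2 CPM among 9807 genes of mean level 5 CPM or more. The libraries fall into 2 groups, so r carries the group difference and is given as a description. Ret was most like Tmem41b, Socs2 and Nkain1 (r of 0.992, 0.992 and 0.991, n = 8). Nkain1 averaged 55.4 ± 15.8 CPM in injury and 15.2 ± 2.61 CPM in naive libraries. Gfra1 was most like Ell2, Ndel1 and Lmo7 (r of 0.998, 0.997 and 0.996, n = 8). Ell2, a transcription elongation factor gene, averaged 99.9 ± 13.4 CPM in injury and 45.0 ± 2.58 CPM in naive libraries. Gfra2 was most like Paqr5, Rgs10 and Arhgap26 (r of 0.985, 0.980 and 0.980, n = 8), and Paqr5 averaged 30.5 ± 5.84 CPM in injury and 47.0 ± 9.69 CPM in naive libraries. Gfra3 was most like Slc29a3, Tmem183a and Gpc1 (r of 0.991, 0.978 and 0.977, n = 8), and Gfra4 like Thsd7b and Ccdc53 (r of 0.967 and 0.957, n = 8). These genes named beside Gfra3 and Gfra4 were themselves not called (edgeR adjusted p of 0.154 to 0.323).

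Around the receptors, 96 of 113 other listed genes of Ret signalling and of Ret-related neurons could be tested. Of these, 10 rose and 12 fell, with a median log2 fold change of -0.08, beside 1108 rises and 609 falls and a median of -0.004 over all 13639 genes tested. The shares over all genes, 8.12% for rises and 4.47% for falls, belong beside the counts of each list below. A list of 10 to 12 tested genes with 1 rise is near the share of rises. Counts at an unadjusted p under 0.05 are given without the share of all genes at that threshold, so they cannot be set against a background. When libraries were scaled by their totals instead of TMM, 9 of the listed genes rose and 21 fell, and 889 of all genes rose and 1001 fell.

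Of 17 tested genes listed as Ret adaptors and docking proteins, 3 rose and 1 fell, with a median log2 fold change of 0.09. Rises numbered 2 with a filter at mean 5 CPM or without injury replicate 4. With DESeq2, without injury or naive replicate 1, or without both libraries of number 1, they numbered 4. Grb2, which links receptors to the Ras activator Sos, had 137 ± 8.65 CPM in injury and 107 ± 1.99 CPM in naive libraries (log2 fold change 0.36 ± 0.07, edgeR adjusted p = 0.000523). Dok5, a docking protein, rose 3.32-fold from a low level, with 5.41 ± 1.67 CPM in injury and 1.63 ± 0.674 CPM in naive libraries (adjusted p = 0.00120). Shc2, a phosphotyrosine-binding adaptor, rose 1.21-fold (adjusted p = 0.00765), but not without injury replicate 4 (0.0527). Dok4 fell, with 251 ± 11.2 CPM in injury and 320 ± 27.1 CPM in naive libraries (adjusted p = 0.000364).

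Among 12 tested genes that restrain Ret or its signal, 1 rose and 1 fell, with a median of 0.08. Rises numbered 2 without injury replicate 1 or without both libraries of number 1. Falls numbered 2 with the replicate block, with no low-count filter or without naive replicate 2 or 3, and 3 with DESeq2, library totals, a filter at mean 5 CPM or without injury replicate 3. Lrig1, a membrane protein that limits growth factor receptors including Ret, had 15.1 ± 3.08 CPM in injury and 6.29 ± 2.33 CPM in naive libraries (log2 fold change 1.25 ± 0.23, edgeR adjusted p = 0.000604). Ptprf, the receptor phosphatase LAR, had 516 ± 23.9 CPM in injury and 641 ± 23.2 CPM in naive libraries (adjusted p = 0.000162). Of 18 Ras-MAPK and PI3K-Akt genes, 3 rose and 1 fell, with a median of 0.04. Falls numbered 2 with no low-count filter or without injury replicate 1 or naive replicate 1, and 3 with library totals or without both libraries of number 1. Pik3cb, a catalytic subunit of PI3K, rose 1.49-fold to 28.4 ± 1.15 CPM in injury, against 18.99 ± 0.897 CPM in naive libraries (adjusted p = 0.000921). Nras rose 1.19-fold (adjusted p = 0.00671), and the Ras activator gene Sos1 fell 1.23-fold (adjusted p = 0.00529). Pik3ca, another catalytic subunit, rose 1.20-fold (adjusted p = 0.0281), but missed the threshold with library totals (0.0788) and without injury replicate 2, 3 or 4 or naive replicate 1, 2 or 4 (up to 0.126).

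Of 10 genes known to be induced by Ret in the embryonic kidney of the mouse, 1 rose and 0 fell, with a median of 0.06; the replicate block called 2 rises. At an unadjusted p under 0.05, edgeR had 2 higher and 1 lower, and neither DESeq2 nor limma-voom called a fall. Etv5, an ETS transcription factor gene, rose, with 202 ± 9.41 CPM in injury and 136 ± 3.09 CPM in naive libraries (log2 fold change 0.57 ± 0.06, edgeR adjusted p = 3.19e-07). Among 6 tested relatives and alternative receptors, edgeR called 0 in either direction, as did DESeq2 and limma-voom, and 2 were higher at an unadjusted p under 0.05. Without injury replicate 3 or naive replicate 4, 1 rose. Of these, Gdf15, a distant relative of GDNF that signals through Ret with the co-receptor Gfral, had 4.92 ± 0.914 CPM in injury and 2.77 ± 0.901 CPM in naive libraries (adjusted p = 0.0751), and Gfral was listed at 0 in all libraries. Ncam1, which can bind GDNF without Ret, had 181 ± 17.6 CPM in injury and 190.5 ± 9.19 CPM in naive libraries (adjusted p = 0.578).

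Genes that mark or specify the neurons in which these receptors are found were taken in 4 lists. Of 11 tested transcription factors of such neurons, 1 rose and 4 fell, with a median of -0.29, where 8.12% of all tested genes rose and 4.47% fell. Klf7 rose 1.33-fold (edgeR adjusted p = 0.000371), and the LIM homeodomain gene Isl1 fell to 92.7 ± 11.05 CPM in injury, against 120.2 ± 5.13 CPM in naive libraries (adjusted p = 0.00212). Prdm12, a regulator of nociceptor development, fell 1.43-fold (adjusted p = 0.0121; 0.0511 without naive replicate 1), and Pou4f2 fell 1.60-fold (adjusted p = 0.0126; 0.0638 without naive replicate 2 and 0.0506 without both libraries of number 1). Runx1, which is needed for the switch of developing mouse nociceptors to Ret, had 77.6 ± 7.76 CPM in injury and 95.1 ± 4.93 CPM in naive libraries (adjusted p = 0.0158; 0.0529 and 0.0726 without injury replicate 2 or 4).

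Of 11 tested markers of Ret-positive non-peptidergic nociceptors, 2 fell and 0 rose, with a median of -0.37. With the replicate block, DESeq2 or limma-voom 4 fell and 0 rose. Falls over all genes then numbered 779, 810 and 600, against 609 in the main fit. At an unadjusted p under 0.05, edgeR had 5 lower and 0 higher, with no share of all genes at that threshold to set beside this. By the adjusted p, the 2 falls became 6 without injury replicate 3, 4 without naive replicate 1 and 1 without both libraries of number 1. Cd55, a complement regulator, had 116 ± 24.9 CPM in injury and 183 ± 18.5 CPM in naive libraries (edgeR adjusted p = 0.0131; 0.0537 without both libraries of number 1). Mrgprd, the receptor that defines a main class of these cells, had 74.8 ± 13.6 CPM in injury and 90.4 ± 22.9 CPM in naive libraries (adjusted p = 0.488), and the ATP receptor gene P2rx3 124 ± 14.8 CPM in injury and 123 ± 8.63 CPM in naive libraries (adjusted p = 0.966).

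Among 6 markers of C-fibre low-threshold mechanoreceptors, in which Gfra2 is abundant, 1 fell and 0 rose, with a median of -0.49. At an unadjusted p under 0.05, edgeR had 2 lower and 0 higher, and DESeq2 and limma-voom each called 1 fall and 0 rises. That member was the purinergic receptor gene P2ry1, with 79.8 ± 15.9 CPM in injury and 119.9 ± 20.5 CPM in naive libraries (edgeR adjusted p = 0.0374). It was not called with the replicate block (0.0634), with no low-count filter (0.0960) or without injury replicate 2 or naive replicate 3 or 4 (0.0695 to 0.102). Without naive replicate 1, or without both libraries of number 1, 2 of these markers fell. Of 7 tested markers of peptidergic neurons, 1 rose and 2 fell, with a median of -0.31; 3 fell without naive replicate 1 and 4 with library totals. Adcyap1, which encodes the neuropeptide PACAP, rose 4.50-fold to 305 ± 72.0 CPM in injury, against 67.7 ± 1.46 CPM in naive libraries (adjusted p = 0.000107). Kit, a receptor tyrosine kinase gene, fell 1.35-fold (adjusted p = 0.00746) and the substance P gene Tac1 1.25-fold (adjusted p = 0.000351), while Calca, the CGRP gene, was at 2573 CPM in both groups (SD 79.8 in injury and 118 in naive libraries, n = 4 each). Trpv1, a channel gene that nociceptors are known to express, had 0 counts in every library, so a 0 in the table need not mean that a gene was silent.

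**Figure D4:**
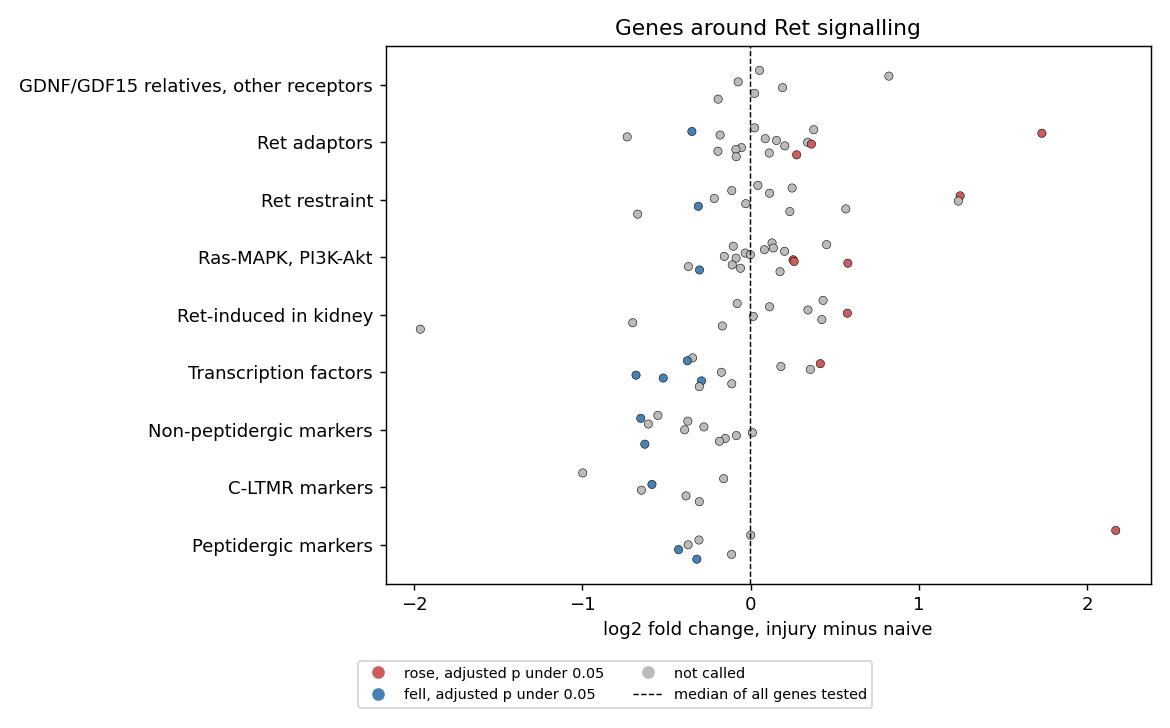
Log2 fold change, injury minus naive, of every tested gene (points) in 9 lists around Ret signalling; red points rose, blue points fell and grey points were not called, and the dashed line is the median of all genes tested. The 4 signalling lists (adaptors, restraint, Ras-MAPK and PI3K-Akt, kidney) hold 17, 12, 18 and 10 tested genes. Of these, 3, 1, 3 and 1 rose, where 8.12% of all genes tested rose. Adcyap1 is the farthest to the right. Of the 11 non-peptidergic markers 10 lie left of 0, where the median of all genes tested is -0.004.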

How the data were processed

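Per the labels, total RNA came from RNeasy Mini kits and was made into QuantSeq 3′ REV libraries. The authors deposited raw counts of reads per gene symbol. The submitters' processing notes name bcl2fastq 2.17, STAR, HTSeq, GRCm38 and mm10. The sources used here do not give the STAR and HTSeq versions, the annotation or the strand setting. Of 24060 rows, 27 had dates for symbols, held 0.146% to 0.158% of counts and were left out.

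Genes were kept by filterByExpr and tested, injury minus naive, with the robust quasi-likelihood F-test of edgeR 4.0.16 (R 4.3.3) after TMM scaling, without a block. SE is the absolute log2 fold change over the square root of F, and is approximate. Alternatives were a replicate block, scaling by DESeq2 size factors or library totals, no low-count filter or one at mean 5 CPM, limma-voom (limma 3.58.1), DESeq2 1.42.0, leaving out each library and, chosen after seeing the data, leaving out both libraries of number 1. The fits were tested on simulated data. Ratios, the co-receptor sum and the ligands were tested by exact permutation over libraries (Python 3.11.15). These tests used all 70 assignments of the 8 libraries and did not keep same-numbered libraries paired. A paired permutation test was not run.

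The design text says that each repeat drew both sides from 2 mice, read here as the replicate number. Deviations from group means of same-numbered libraries correlated at 0.04 to 0.06. Libraries of different number correlated at -0.08 to 0.04, so every correlation was under 0.1. The same number was the best match for injury replicates 1, 2 and 3, while injury replicate 4 correlated best with naive replicate 3. Pairs of libraries in a group all differed beyond counting error, with chi-square 8.09 to 19.2 times its degrees of freedom. The labels do not say that replicates are separate animals beyond this; p-values measure the spread between these libraries.

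Members and lists were chosen with earlier results of these data known. Named were all members, up to 4 called genes per list with the smallest p, and the 3 genes most like each member; Runx1, Glul, Pdgfra, Gdf15, Gfral, Pspn, Ncam1, Mrgprd, P2rx3, Calca and Trpv1 were added after their values were seen. Positions are those of GENCODE M21 (GRCm38). Some genes that meet the naming rule are not reported here.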

Additional observations from a re-analysis of the deposited data

Results flagged for a closer look

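In the injury group, Gdnf stood at 0.0886 CPM in injury replicate 1, from 2 counts, while the other 3 injury libraries had 0. With 3 values at 0 any count in the remaining library gives the widest possible gap, and 0.0886 CPM is below the 0.137 to 0.175 CPM that a count of 0 allows in those 3 libraries, so this does not show that this library differed. It was the 1 case among 40 groups of 4 examined over the family genes and their ratios; the usual rate of about 1 in 20 by chance does not apply to such counts.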

How the results depend on the processing

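Ret, Gfra1 and Gfra2 kept their direction and their call under all 16 alternatives run, and the number of changed family genes was 3 in each. With the replicate block the log2 fold changes were 0.41, 1.29 and -0.66; it changed no call among the 6 tested family genes. Over all alternatives log2 fold changes ranged from 0.35 to 0.46 for Ret, 1.20 to 1.39 for Gfra1 and -0.78 to -0.59 for Gfra2, and the highest adjusted p were 0.000420, 2.20e-06 and 0.0253, the last with no low-count filter. Gfra3 and Gfra4 passed under none (lowest adjusted p 0.387 and 0.225), nor did Nrtn under the 15 that kept it (0.613); a mean of at least 5 CPM removed Nrtn. With a library left out, 3 against 4 libraries cannot pass the exact test, so ratios were recomputed as values: the log2 difference of Gfra1 over Gfra2, 1.94, ranged from 1.78 to 2.12. Scaling by library totals shifted all genes, with a median log2 fold change of -0.06, and brought the falls among all genes to 1001, against 609, and those among the listed genes to 21, against 12. Among the lists, falls numbered 1 to 3 for restraint genes, 1 to 3 for Ras-MAPK and PI3K-Akt genes, 3 to 6 for transcription factors, 1 to 6 for non-peptidergic, 0 to 2 for mechanoreceptor and 2 to 4 for peptidergic markers; the cause was not tested. Counts over all genes ranged from 1299 to 1859 with a library left out. The ligand genes were limited by their few counts, with 2 counts of Gdnf in injury and 14 in naive libraries, and 11 counts of Artn in injury and 21 in naive libraries.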
